A study of Mus musculus with 2 samples.

Results

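A set of 8 genes that cells switch on when the glucocorticoid receptor is activated were followed through bulk RNA-seq of primary mouse pituitary cells: Tsc22d3, Fkbp5, Sgk1, Klf9, Ddit4, Anxa1, Zbtb16 and Cdkn1a. They were chosen by name as widely used glucocorticoid-induced genes, by a rule that uses no measured value, and all 8 were found among the 47069 genes of the count table. The choice was nevertheless made with earlier results of these data known, so it was not blind to them. The study placed acutely dissociated pituitary cells in RNA-Best, a stabilization buffer that keeps single cells intact, or in RNAlater, an established RNA stabilizer that served as the reference. The pituitaries came from randomly cycling C57BL/6 females aged 10 to 12 weeks. The study's methods describe a sample as about 500000 to 700000 cells from 5 pituitaries. They give this with the plated cells and state no separate number for the bulk samples. Both bulk samples were handled alike up to the stabilizer, by digestion with collagenase and dispersal with pancreatine. The study's methods name M199 medium with serum, HEPES and antibiotics for plated cells, and immediate storage for the bulk samples. Whether these 2 samples met that medium is not clear from them. The labels name no glucocorticoid treatment, so every level below is that of untreated, dissociated cells. There was 1 library for each stabilizer, so no difference below has a replicate check and none was tested. A difference between the libraries cannot be told apart from one between the 2 pools of cells or between the 2 library preparations.

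Glucocorticoids from the adrenal gland bind a receptor that waits in the cytoplasm in a complex with heat-shock protein 90 and its co-chaperones, then enters the nucleus and binds DNA at glucocorticoid response elements. In the anterior pituitary this closes the stress axis: corticotropes lower the transcription of Pomc, the precursor of corticotropin, and release less hormone. Several of the induced genes act back on the pathway itself. Fkbp5 encodes the co-chaperone that lowers the affinity of the receptor for its ligand, Tsc22d3 encodes the leucine zipper protein GILZ that restrains inflammatory transcription factors, and Anxa1 encodes annexin A1, which folliculostellate cells, the non-endocrine support cells of the gland, release to restrain corticotropin secretion.

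Promoter windows from RefSeq on GRCm38.p6, each running from 250 bases before to 50 bases after a transcription start, were available for 7 of the 8 genes (15 windows). The DNA of a full response element is a palindrome of AGAACA and TGTTCT with 3 bases between them. Searched on both strands, it was found in 3 of all 32851 windows (0.00913%), and 1 of these 3 belongs to Sgk1. That element lay at chr10:21993701-21993715, at positions -189 to -175 of the Sgk1 start at 21993890, and its last base lay 951 bases before the start at 21994666. It falls in an intron of 5 of the 13 annotated Sgk1 transcripts and in no exon. The half-site AGAACA, or TGTTCT on the other strand, is short and was present in 18.97% of all windows. Among the 8 genes it was found for Sgk1, whose full element holds it on either side, and for Tsc22d3. The Cdkn1a window at the upstream start held a p53 response element, the paired site of the tumour suppressor p53, with at most 1 base outside the consensus and no spacer. Such an element was found in 29 of the 32851 windows (0.0883%). It lay at chr17:29090928-29090947, at positions -51 to -32 of that start. The stretches are shown 5′ to 3′ up to the first annotated exon because they hold these elements, which are in capitals. A further Sgk1 half-site, TGTTCT at chr10:21993648-21993653, lies in the stretch shown and is left in lower case. Half-sites in other Sgk1 windows, at chr10:21881989-21881994 and chr10:21992210-21992215, lie outside the stretches shown. The stretches are chr10:21993640-21993889 on the + strand for Sgk1, chr17:29090729-29090975 on the + strand for Cdkn1a, and chrX:140600660-140600772 on the - strand for Tsc22d3, where the capitals mark the half-site.
Sgk1: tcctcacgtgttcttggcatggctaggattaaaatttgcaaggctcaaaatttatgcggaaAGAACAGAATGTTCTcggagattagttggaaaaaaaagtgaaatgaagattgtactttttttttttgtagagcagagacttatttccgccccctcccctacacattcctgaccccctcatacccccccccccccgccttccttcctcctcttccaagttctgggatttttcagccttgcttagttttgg
Cdkn1a: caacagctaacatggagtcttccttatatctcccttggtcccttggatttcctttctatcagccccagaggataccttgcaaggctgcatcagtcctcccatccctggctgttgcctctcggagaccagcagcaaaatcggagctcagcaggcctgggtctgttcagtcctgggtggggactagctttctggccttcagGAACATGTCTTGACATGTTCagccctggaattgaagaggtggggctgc
Tsc22d3: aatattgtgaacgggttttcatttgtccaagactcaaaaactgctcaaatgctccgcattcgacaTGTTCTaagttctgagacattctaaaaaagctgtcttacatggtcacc

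**Figure D1:**
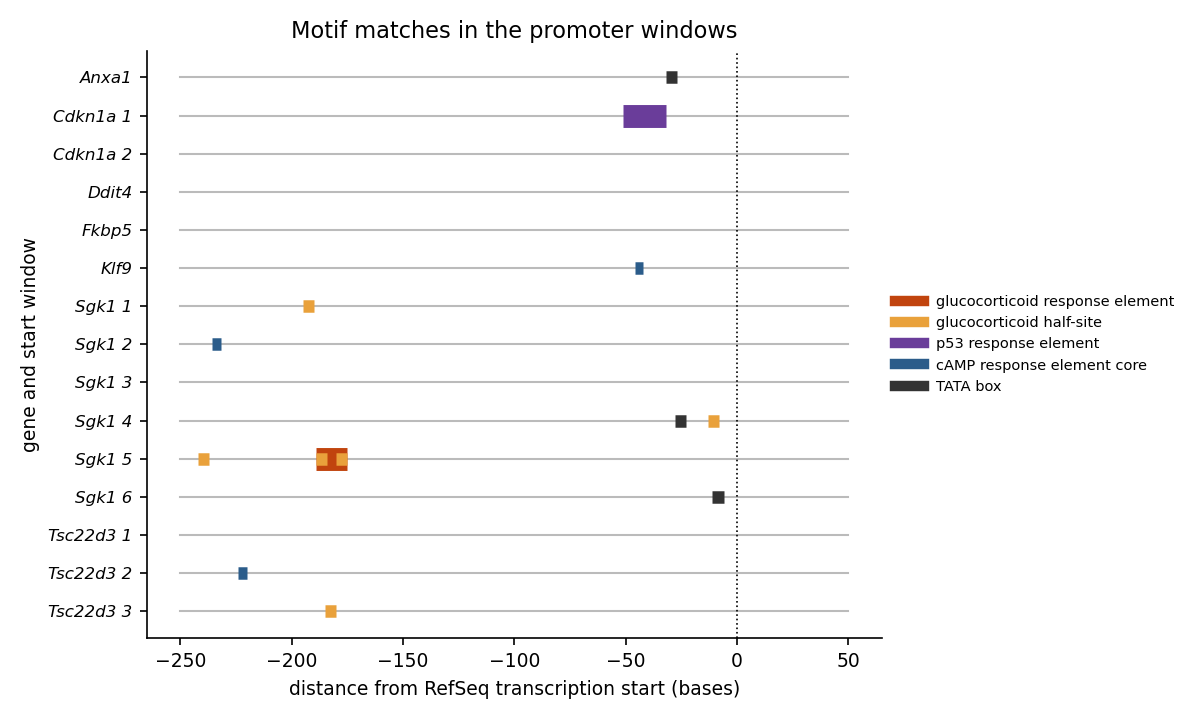
Motif matches in the 15 promoter windows, by distance in bases from the RefSeq transcription start, with windows of 1 gene numbered by coordinate. Blocks mark a full glucocorticoid response element, its half-site, a p53 element, the cAMP response element core TGACG and the TATA box TATAAA. The full glucocorticoid element stands in 1 Sgk1 window and the p53 element in 1 Cdkn1a window.

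Other motifs in these windows were common across the genome. The core TGACG of the cAMP response element, through which corticotropin-releasing hormone signals, was found for Klf9, Sgk1 and Tsc22d3 and in 20.8% of all windows. The TATA box TATAAA was found for Anxa1 and Sgk1 and in 13.6% of all windows. The windows of Anxa1, Cdkn1a, Fkbp5, Ddit4 and Klf9 held neither the full element nor its half-site, which says only that these letters are not within these windows.

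Gene counts totalled 53915047 with RNA-Best and 44917492 with RNAlater. Levels are given as CPM, which scales each gene's count to the total of its library. All intervals are 95% intervals for counting error alone, and they treat reads as independent. PCR copies of a molecule are not independent of each other, so the intervals can be too narrow even for counting error. Ratios are log2 of RNA-Best over RNAlater with 0.5 CPM added to each level, and their intervals were computed from the counts without that addition. The endocrine origin of the tissue was plain from its hormone transcripts, with Prl at 235654 CPM with RNA-Best and 172302 CPM with RNAlater. Genes averaging 1 CPM or more over both libraries, 16504 in all, are called tested here. Their median log2 ratio was -0.18, and it moved to -0.01 with TMM factors and to -0.0036 with DESeq2 size factors. A ratio near -0.18 is therefore the ordinary value for a gene in this comparison, and positions relative to it are given beside each sign.

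All 8 genes were detected well above the count floor in both libraries. By CPM, Ddit4 was level, 6 genes were lower in RNA-Best by less than 2-fold and Zbtb16 was lower by more. Their median log2 ratio was -0.33, which is 0.15 below that of all tested genes, and 6 of the 8 lay below that median. By CPM 7 of the 8 were lower in RNA-Best, against 11058 of the 16504 tested genes (67.0%). The number was 6 with TMM factors, against 8478 of the 16504 tested genes. With DESeq2 size factors it was 5, against 8311 of the 16504. It changed because Tsc22d3 and Cdkn1a sit close to the ordinary value. Zbtb16 alone of the 8 was at least 2-fold lower in RNA-Best, against a background of 4.99% of tested genes, and 0 of the 8 were at least 2-fold higher, against 0.273%. At 1.5-fold, 2 of the 8 were lower (Zbtb16 and Klf9), against 18.8%, and 0 were higher, against 3.22%. Among 8 genes, 1 gene more or fewer moves such a share by more than its distance from the background. Of all 2-fold differences, 5.18% were higher with RNA-Best by CPM, 20.1% with TMM factors and 21.8% with DESeq2 size factors, so the direction of a small ratio depends on the scaling. With either factor Zbtb16 stayed at least 2-fold lower and Klf9 no longer passed 1.5-fold.

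**Figure D2:**
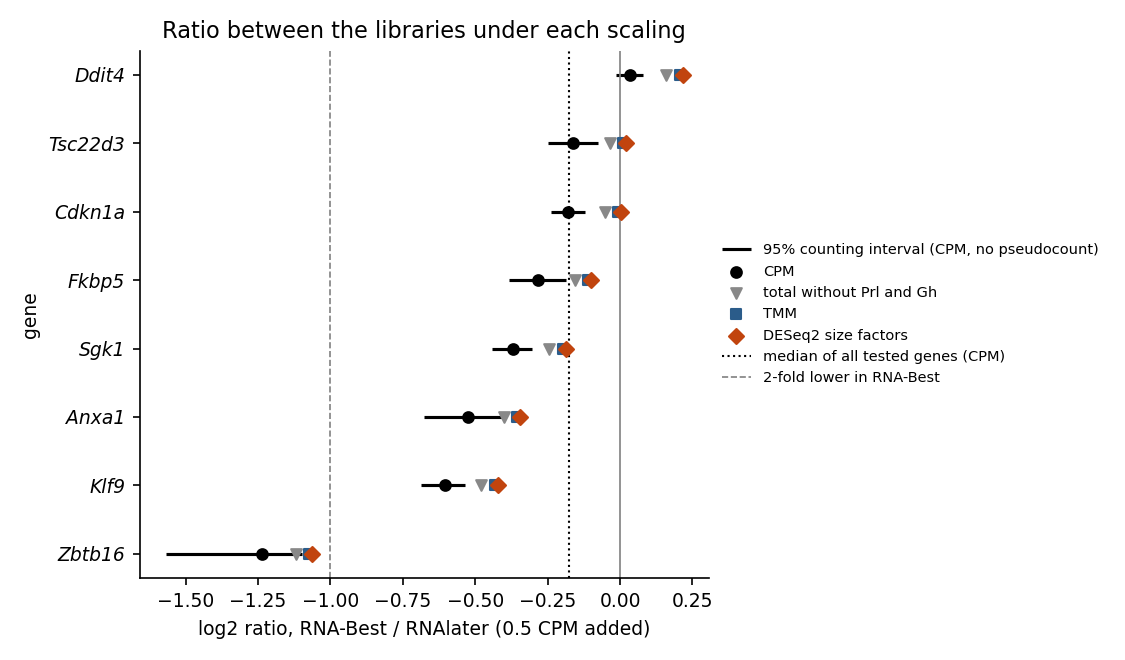
Log2 ratio of RNA-Best to RNAlater for each of the 8 genes (x axis) with CPM, with the total without Prl and Gh, and with TMM or DESeq2 factors. Black lines are 95% counting intervals, the dotted line is the median of all tested genes at -0.18, and the dashed line marks 2-fold lower. Zbtb16 lies beyond the dashed line under every scaling, whereas by CPM Tsc22d3 and Cdkn1a lie at the dotted line.

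Fkbp5 (ENSMUSG00000024222.16, chr17:28399094-28517527, - strand) was read at 30.9 CPM with RNA-Best and 37.6 CPM with RNAlater, from 1664 and 1691 counts. Its log2 ratio was -0.28 (interval -0.39 to -0.19), 0.11 below the median of all genes. Fkbp4, its close relative that favours transport of the receptor to the nucleus, went the other way, with a log2 ratio of 0.21 (interval 0.17 to 0.25). Per kilobase of the longest transcript, Fkbp5 stood at 9.03% of the Fkbp4 level in RNA-Best and at 12.8% in RNAlater. With the median transcript length these shares were 21.1% and 29.9%, so the co-chaperone that dampens the receptor was the scarcer of the pair under either length.

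Tsc22d3 (ENSMUSG00000031431.13, chrX:140539528-140600659, - strand) stood at 41.6 CPM with RNA-Best and 46.5 CPM with RNAlater. Its log2 ratio of -0.16 (interval -0.25 to -0.08) was ordinary for the comparison, at the 51.3 percentile of all tested genes, and with TMM factors it was 0.01. Its counts included fractions of reads (2240.67 and 2089.67), because the counting shared some reads out among features. The other family members gave a log2 ratio of -0.13 for Tsc22d1, -0.63 for Tsc22d2 and -0.18 for Tsc22d4. Tsc22d1 was the most abundant of the 4 per kilobase, at 123 RPKM in RNA-Best and 136 RPKM in RNAlater, against 14.5 and 16.2 RPKM for Tsc22d3.

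Anxa1 (ENSMUSG00000024659.14, chr19:20373428-20390944, - strand) was read at 14.4 CPM in RNA-Best, from 779 counts, and at 20.99 CPM in RNAlater, from 943 counts. The log2 ratio was -0.52 (interval -0.68 to -0.40), which is 0.35 below the median of all genes. The study's own assay list includes a qPCR primer pair for this gene, shown because it marks the stretch of Anxa1 that the authors measured. The pair spans 2 coding exons and gives a product of 90 bases from 20382949 to 20383819 on chromosome 19, across the intron between them.
Anxa1 forward: accaagaggaccaatgctca
Anxa1 reverse: ggcttttctcaagacttcatcc

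Markers of stem and folliculostellate cells were lower in RNA-Best by CPM, whereas those of macrophages, given below, were split. The 8 markers of stem and folliculostellate cells summed to 276 CPM with RNA-Best and 423 CPM with RNAlater. All 8 were lower by CPM, against 67.0% of all tested genes, and their median log2 ratio was -0.56. Sox9 gave -0.92, Cyp2f2 -0.69 and Cdh26 -0.14, and with TMM factors Cdh26 was at 0.03. In bulk samples, fewer cells of a type and less RNA per cell cannot be told apart. Annexin A1 is also abundant in myeloid cells. The 10 macrophage markers were split, 5 lower and 5 higher, with sums of 225 CPM and 212 CPM. C1qa (0.56) and Aif1 (0.47) were at the upper end, with Cx3cr1 (-0.82) and Csf1r (-0.75) at the lower end. The neutrophil markers summed to 3.90 CPM and 4.47 CPM, with Mpo, Elane and Camp at 0 in both libraries and only S100a8 (log2 ratio 0.22) and S100a9 (-0.36) above the filter on low values. The part of any of these cells in the Anxa1 ratio was not tested. Among the other annexins, Anxa11 gave a log2 ratio of -0.64, Anxa3 -0.43, Anxa2 -0.39, Anxa4 -0.14, Anxa5 -0.14, Anxa7 -0.09 and Anxa6 -0.07. All 8 annexins were lower by CPM, as were 67.0% of all tested genes, and with TMM factors Anxa4, Anxa5, Anxa6 and Anxa7 were above 0.

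Sgk1 (ENSMUSG00000019970.15, chr10:21882184-21999903, + strand), a kinase that regulates ion channels and transporters, stood at 60.9 CPM with RNA-Best and 78.8 CPM with RNAlater. Its log2 ratio was -0.37 (interval -0.44 to -0.30), 0.20 below the median of all genes. This is the gene with the full response element shown above. Sgk3, the other expressed kinase of the family, gave -0.06 at 11.6 CPM on average, and Sgk2 had no count in either library.

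Ddit4 (ENSMUSG00000020108.3, chr10:59949669-59951834, - strand), an inhibitor of the growth kinase complex mTORC1, was the most abundant of the 8 genes. It stood at 157 CPM with RNA-Best and 153 CPM with RNAlater, with a log2 ratio of 0.03 whose interval of -0.01 to 0.08 included 0. Relative to the median of all genes it was 0.21 higher. Its relative Ddit4l gave -0.24 at 12.2 CPM on average. Ddit4 is also a stress gene downstream of the transcription factor ATF4, so the ATF4 targets were set beside it. The 8 genes of that list, which includes Atf4 itself (-0.01), had a median log2 ratio of -0.05. By CPM 5 of 8 were lower, against 67.0% of all tested genes. With TMM factors 3 of 8 were lower, against 8478 of the 16504 tested genes. Chac1 (0.14) and Ddit3 (0.03) were highest, and Vldlr (-0.27) and Nupr1 (-0.71) lowest.

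Cdkn1a (ENSMUSG00000023067.13, chr17:29090976-29100727, + strand) encodes the cell cycle inhibitor p21. It stood at 87.3 CPM with RNA-Best and 98.9 CPM with RNAlater, with a log2 ratio of -0.18 (interval -0.24 to -0.12), the ordinary value for the comparison. The sign depended on the scaling, at -0.0073 with TMM factors and 0.0044 with DESeq2 size factors. The related inhibitors gave log2 ratios of -0.17 for Cdkn1b and -0.06 for Cdkn1c. Of 12 other targets of p53, none passed 1.5-fold in either direction, and their median was -0.20. Bax (0.17) and Phlda3 (0.04) were highest, and Zmat3 (-0.46) and Sesn2 (-0.56) lowest. An antisense-strand gene model, AC167363.2, shares 273 exonic bases with Cdkn1a but is not among the genes counted. The strand setting of the counting is not given in the sources used here. Reads from the other strand in that stretch therefore cannot be told apart from those of Cdkn1a.

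Klf9 (ENSMUSG00000033863.1, chr19:23141226-23168134, + strand), a transcription factor induced by glucocorticoid and thyroid hormones, was read at 46.3 CPM with RNA-Best and 70.7 CPM with RNAlater. Its log2 ratio was -0.61 (interval -0.69 to -0.53), 0.43 below the median of all genes, and -0.43 with TMM factors. Its relatives spread widely: Klf13 gave -1.01, Klf16 -0.33 and Klf14 0.05.

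Zbtb16 (ENSMUSG00000066687.4, chr9:48654297-48836222, - strand), the transcription factor PLZF, was the least abundant of the 8 genes and the one that differed most. It was read at 4.14 CPM in RNA-Best, from 223 counts, and at 10.4 CPM in RNAlater, from 468 counts. The log2 ratio was -1.24 with 0.5 CPM added and -1.33 without, with an interval of -1.57 to -1.10. With TMM factors it was -1.08. It lay at the 2.01 percentile of all tested genes. Zbtb32, listed as its relative, was below the filter on low values in this tissue.

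The 8 genes together took 0.0442% of the RNA-Best counts (exact Clopper-Pearson interval 0.0436 to 0.0448%) and 0.0517% of the RNAlater counts (0.0510 to 0.0524%). Ddit4 and Cdkn1a supplied 55.2% of these counts in RNA-Best and 48.7% in RNAlater. Levels of different genes were compared per kilobase of the longest annotated transcript (RPKM). In RNA-Best the order was Ddit4 (89.2 RPKM), Cdkn1a (42.0), Sgk1 (19.7), Tsc22d3 (14.5), Klf9 (10.3), Anxa1 (8.63), Fkbp5 (8.0) and Zbtb16 (0.809). In RNAlater the order was the same, from 87.2 RPKM for Ddit4 to 2.04 RPKM for Zbtb16. The neighbours Anxa1 and Fkbp5 in RNA-Best, and Tsc22d3 and Klf9 in RNAlater, did not differ beyond their counting intervals. With the median transcript length in place of the longest, Sgk1 moved up, to 81.3 RPKM in RNA-Best and 105 RPKM in RNAlater, next to or above Ddit4, and Klf9 moved down to the place before the last in both libraries. Zbtb16 alone kept its place in both libraries under the 2 lengths.

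**Figure D3:**
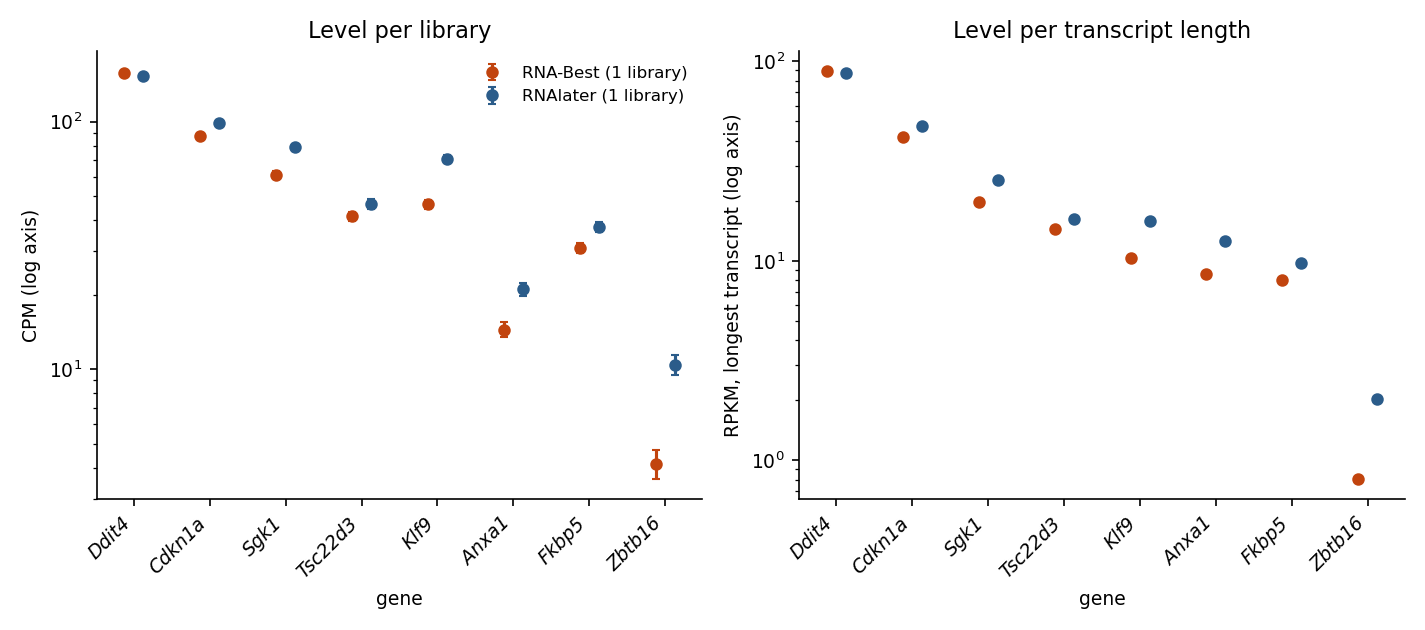
Levels of the 8 genes in the 2 libraries on log axes, as CPM with 95% Poisson counting intervals (left) and as RPKM by the longest transcript (right), ordered by RPKM. The 2 libraries give the same order per kilobase, with Ddit4 highest and Zbtb16 lowest.

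Across all genes the ratio fell with transcript length, so each of the 8 was set beside the 500 tested genes nearest to it in length. This comparison is a description of these libraries. At 5.11 kb, Zbtb16 has the longest transcript of the 8, and genes of that length had a median log2 ratio of -0.43. Zbtb16 lay 0.80 below them, at the 1.8 percentile of the 500. Anxa1, at 1.67 kb, has the shortest, and genes of that length had a median of 0.05. It lay 0.58 below them, at the 4.4 percentile. Klf9, at 4.49 kb, lay 0.22 below genes of its length, which had a median of -0.38, at the 26.2 percentile. Sgk1 (25.2 percentile) and Cdkn1a (25.4 percentile) were placed similarly, whereas Fkbp5 and Tsc22d3 (both 45.2) and Ddit4 (50.8) were near the middle. With the median length of a gene's transcripts in place of the longest, Fkbp5 lay 0.23 below and Ddit4 0.26 above genes of like length, Sgk1 lay 0.29 below and Cdkn1a 0.065 below. Against genes of like length, Zbtb16 and Anxa1 were thus the lowest of the 8, and Anxa1 rather than Klf9 was next to Zbtb16, under either length.

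**Figure D4:**
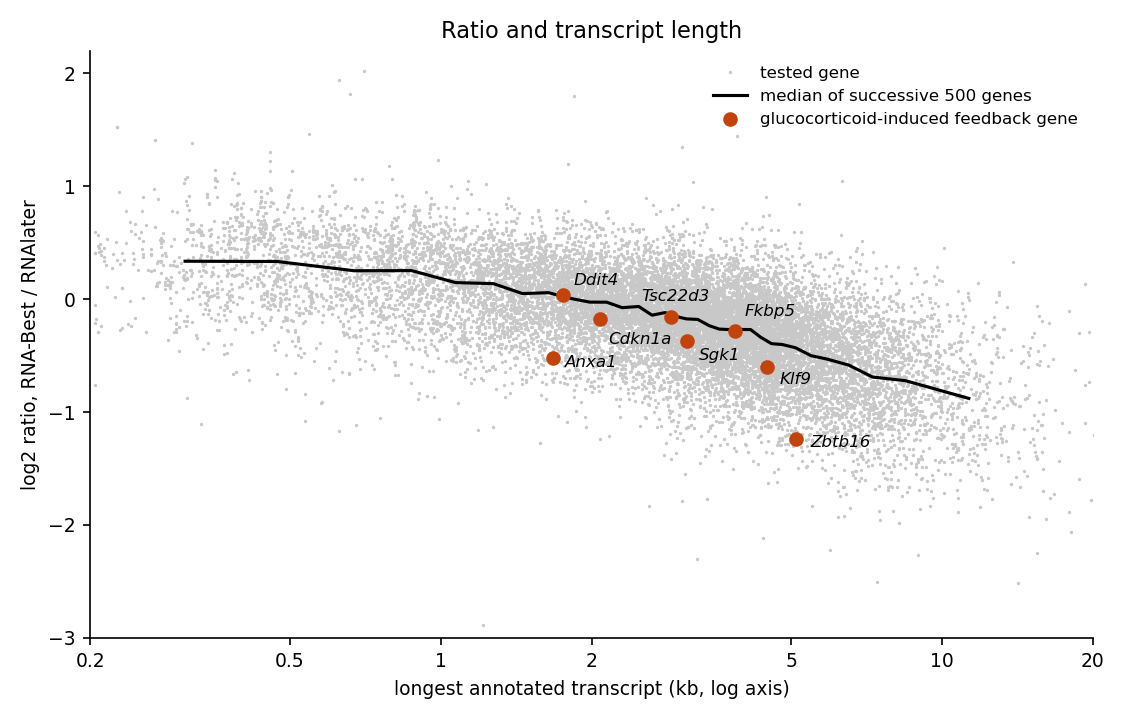
Log2 ratio of RNA-Best to RNAlater (y axis) against the longest annotated transcript in kb (x axis, log scale) for tested genes between 0.2 and 20 kb, in grey, with the median of successive sets of 500 genes as a black line. The 8 genes are in orange. Zbtb16 lies 0.80 and Anxa1 0.58 below genes of their length, and Ddit4, Fkbp5 and Tsc22d3 lie on the line.

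The receptor itself was well expressed. Nr3c1, the glucocorticoid receptor, stood at 59.8 CPM with RNA-Best and 90.9 CPM with RNAlater, with a log2 ratio of -0.60, and lay 0.02 below genes of its length. Nr3c2, the mineralocorticoid receptor that binds the same hormones, stood at 22.1 CPM and 33.6 CPM, with a log2 ratio of -0.59. Hsd11b1, which regenerates active glucocorticoid inside cells, was level at 85.3 CPM and 84.7 CPM (log2 ratio 0.01). Hsd11b2, which inactivates the hormone, gave 5 counts in RNA-Best and 0 in RNAlater, and a floor of 3 counts was taken as what a count of 0 allows, which is 0.0668 CPM. The co-chaperone Ptges3 gave a log2 ratio of 0.06. Across the 17 tested genes of the receptor machinery, 13 were lower by CPM, against 67.0% of all tested genes, and 4 were higher. The median was -0.49. Ncoa3 (-1.14), a coactivator of nuclear receptors, was among those at least 2-fold lower. The median longest transcript of this list was 5.92 kb, against 3.09 kb for all tested genes, and its genes lay a median of 0.06 below genes of like length.

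Other genes known to rise with glucocorticoids were set beside the 8. Of 24 tested, 23 were lower in RNA-Best by CPM, against 67.0% of all tested genes, and 19 lay below the median of all genes. With TMM factors 19 were lower, against 8478 of the 16504 tested genes. The median log2 ratio was -0.31, against -0.33 for the 8 genes and -0.18 for all tested genes. At least 2-fold lower were 3 of the 24, against 4.99% of all tested genes, namely Irs2 (-1.33), an adaptor of the insulin receptor, Hif3a (-1.18), a hypoxia-inducible factor, and Per1 (-1.07), a circadian clock gene. Rgs2 (0.11), a regulator of G protein signalling, and Arl4d (-0.05) were highest. These genes lay a median of 0.27 below genes of like length, with 21 of 24 below, against a median of 0.18 below and 7 of 8 below for the 8 genes. Likeness across only 2 libraries cannot single out genes: 11216 of the 16504 tested genes (68.0%) had a log2 ratio within the range of the 8.

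The genes through which corticotropes feel the feedback were measured too. Pomc, which glucocorticoids repress in corticotropes, was higher in RNA-Best, at 9550 CPM against 6843 CPM, with a log2 ratio of 0.48 (interval 0.47 to 0.49). These are bulk values of dissociated pituitary cells, and the part of corticotropes in them was not tested. Nr4a1, a nuclear receptor that drives Pomc transcription and that the activated glucocorticoid receptor opposes, was lower, with a log2 ratio of -0.57 (interval -0.59 to -0.55). The receptors for corticotropin-releasing hormone, Crhr1 (-0.15), and for vasopressin, Avpr1b (-0.23), had intervals that included 0. The median of these 4 genes was -0.19. Over the 18 tested relatives of the 8 genes the median was -0.15, against -0.18 for all tested genes. Of these relatives, 10 lay above the median of all genes. Lower by CPM were 16 of 18, against 67.0% of all tested genes. With TMM factors 8 of 18 were lower, against 8478 of the 16504 tested genes. Klf13 alone was past 2-fold.

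**Figure D5:**
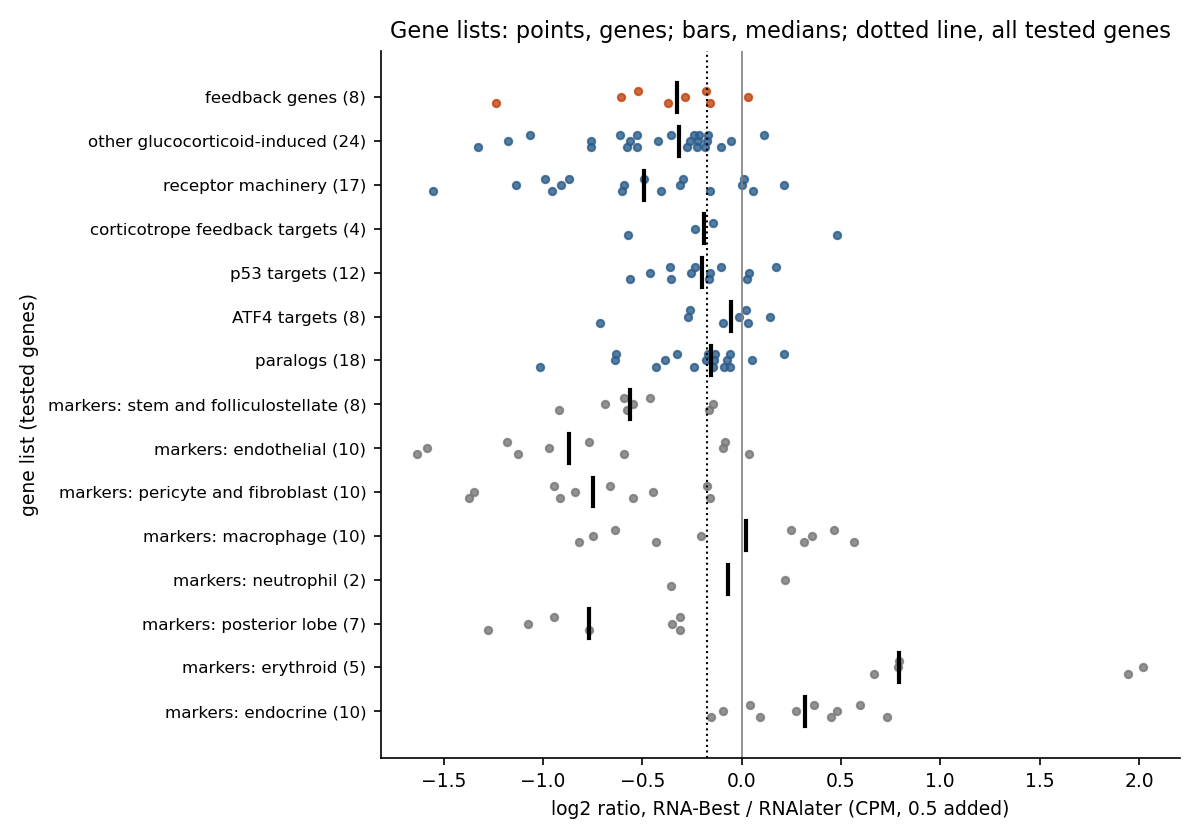
Log2 ratio of RNA-Best to RNAlater (x axis) for every tested gene of each list (y axis, with the number of tested genes), the list medians as black bars and the median of all tested genes as a dotted line. The feedback genes and the other glucocorticoid-induced genes have medians of -0.33 and -0.31, between those of the p53 targets (-0.20) and the receptor machinery (-0.49).

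Several lists of cell type markers had medians further from that of all genes than the feedback genes had. For the counts that follow, 67.0% of all tested genes were lower by CPM and 8478 of 16504 with TMM factors. By CPM 4.99% were at least 2-fold lower. Of 10 endothelial markers, 9 were lower by CPM and 7 with TMM factors, with sums of 430 CPM with RNA-Best and 813 CPM with RNAlater. Kdr (-1.63), Flt1 (-1.58), Cdh5 (-1.18) and Pecam1 (-1.13) were at least 2-fold lower, while Cldn5 (-0.08) and Egfl7 (0.04) were near level. All 10 pericyte and fibroblast markers were lower by CPM and 9 with TMM factors, with sums of 608 CPM and 815 CPM, from Col1a1 (-1.37) and Pdgfrb (-1.35) to Col1a2 (-0.18) and Ogn (-0.16). The 7 posterior lobe markers were all lower, with sums of 96.6 CPM and 182 CPM, from Nkx2-1 (-1.28) and Col25a1 (-1.07) to Rax and Vax1 (both -0.31). The 5 erythroid markers were all higher, with sums of 3200 CPM and 1130 CPM, from Alas2 (0.67) and Hba-a2 (0.78) to Hbb-bs (1.94) and Hbb-bt (2.02). Of 10 endocrine markers, 8 were higher by CPM and 10 with TMM factors, from Tbx19 (-0.15) and Nr5a1 (-0.09) to Cga (0.60) and Tshb (0.73). Their median was 0.32 and that of the endothelial markers was -0.87. These lists differ in transcript length, with a median of 0.70 kb for the erythroid and 5.02 kb for the pericyte and fibroblast markers. Against genes of like length, the median difference was -0.65 for endothelial, -0.43 for pericyte and fibroblast and -0.46 for posterior lobe markers. It was 0.70 for erythroid, 0.20 for endocrine, -0.51 for stem and folliculostellate and 0.06 for macrophage markers. The part of these cell types in the levels of the 8 genes was not tested.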

How the data were processed

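Poly(A) RNA of 2 primary pituitary cell samples, 1 in RNA-Best and 1 in RNAlater, was sequenced from Illumina TruSeq libraries. The authors deposited estimated counts per gene, not normalized. Per the submitters' processing notes, STAR 2.5.1b, featureCounts 1.5.0-p1 and the build mm10 were used. Of the values above 0, 35.4% in RNA-Best and 34.9% in RNAlater were fractions, so the deposited counts divide some reads between features. The counting options and strand setting are not given in the sources used here. Totals were 53915047 and 44917492 counts.

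Symbols, coordinates and transcript lengths came from GENCODE M21 on GRCm38 (46574 of 47069 identifiers matched, 98.9%), and promoter windows from RefSeq on GRCm38.p6. Anxa1 primers came from the study's primer list. CPM used each library's total. Ratios used a pseudocount of 0.5 CPM, which understates the change of low genes, and tested genes averaged 1 CPM or more. Past 2-fold or 1.5-fold is a rule of size. Ratio intervals are exact conditional binomial and level intervals exact Poisson, on counts rounded to whole numbers, at 95%. Counts were expected to be whole, and the fractions required this rounding. Medians by length used the 500 genes nearest in longest transcript length. As each stabilizer had 1 library, no spread could be estimated and no test was run. Steps were tested on simulated data. Alternatives were TMM (edgeR 4.0.16) and DESeq2 1.42.0 factors in R 4.3.3, the total without the 2 most abundant genes, pseudocounts of 0.1 and 1 CPM, other filters, equal depth, protein-coding genes only, the median transcript length and LOWESS (statsmodels 0.14.6). Other work used Python 3.11.15, numpy 2.4.6, scipy 1.17.1, pandas 2.3.3 and matplotlib 3.10.9.

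The members and gene lists were chosen with earlier results of these data known. Fkbp4 is in the lists of receptor machinery and of relatives, and Pomc in those of feedback targets and of endocrine markers. Named were the 8 genes, 6 genes of the receptor machinery (Nr3c1, Nr3c2, Hsd11b1, Hsd11b2, Fkbp4 and Ptges3), tested relatives of the 8 and, of each other list, the 2 highest and 2 lowest ratios and every gene past 2-fold, of which some are not reported here. Sgk2, Zbtb32 and AC167363.2 fell outside this rule. Sgk2 and Zbtb32 were named after their values were seen. AC167363.2, which was not counted, was named after its overlap with Cdkn1a was seen.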

Additional observations from a re-analysis of the deposited data

How the results depend on the processing

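Ratios of 1 library to another carry no replicate error, and the scaling was the choice that moved them most. The median log2 ratio of the 8 genes, -0.33 by CPM, was -0.16 with TMM factors, -0.14 with DESeq2 size factors and -0.20 with the total without the 2 most abundant genes (Prl and Gh). Relative to the median of all genes it stayed at -0.14 under each, against -0.15 by CPM, which a scaling cannot move much, as it shifts all genes together. The choice of genes did move it: it was -0.26 with no filter on low values, -0.089 with a mean of 10 CPM or more and -0.10 for protein-coding genes only. The receptor machinery moved from -0.49 to -0.32, -0.31 and -0.37 under these 3 scalings in the same order, and the other glucocorticoid-induced genes from -0.31 to -0.15, -0.13 and -0.19. The p53 targets moved from -0.20 to -0.036, -0.025 and -0.079, the ATF4 targets from -0.05 to 0.11, 0.13 and 0.070, and the relatives of the 8 genes from -0.15 to 0.018, 0.030 and -0.027. Signs turned for Tsc22d3 with TMM (0.01) and DESeq2 factors (0.02) and for Cdkn1a with DESeq2 factors (0.0044), whose counting intervals by CPM include the median of all genes. Genes past 2-fold numbered 824 lower and 45 higher by CPM, 438 and 110 with TMM factors, 423 and 118 with DESeq2 size factors, and 536 and 83 without the 2 most abundant genes, which made 13.4% of them higher. Zbtb16 stayed past 2-fold under every scaling. With a mean of at least 10 CPM required, Zbtb16 was left out by the filter and 0 of 7 genes were past 2-fold. The share of the 8 genes rose to 0.0628% in RNA-Best and 0.0673% in RNAlater when the 2 most abundant genes were left out of the total. With the median transcript length, each gene's own ratio stayed the same and only the genes of like length beside it changed. The difference from them moved most for Fkbp5 (from -0.03 to -0.23), Ddit4 (0.01 to 0.26), Sgk1 (-0.20 to -0.29) and Cdkn1a (-0.17 to -0.065). For Tsc22d3 it turned from -0.04 to 0.02. Counting error was widest for Zbtb16, with 223 and 468 counts. No paired analysis was possible because a single library stands for each stabilizer, with no numbers to pair.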
